A study of Mus musculus with 4 samples.

Results

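The genes described here are 37 enzymes and cofactors of DNA repair, followed in single microglia of young mice after irradiation of the whole brain. They were taken by name from a list that covers nucleotide excision, base excision, mismatch repair, end joining, recombination, translesion synthesis, direct reversal and nucleotide supply. All 37 were among the 27998 genes counted, and 32 of them had 50 or more molecules over the libraries compared at 6 h and again at 1 week.

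Microglia are the resident macrophages of the brain. The mice were C57BL/6 and received a single dose of 8 Gy to the whole brain at postnatal day 21, or a sham procedure. Droplet libraries (10x Genomics Chromium) were made from 4 groups, sham and irradiated mice taken 6 h and 1 week afterwards, and each group was 1 library pooled from 4 mice. No genotype, transgene or second agent is named for any group, the labels give the age P21 for all of them, and how the cells were isolated is not given in the sources used here. The labels name the brain as source while the design text speaks of hippocampal cells, so the region is not settled. With 1 pooled library a group, no value below has a replicate check and no test was possible.

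Ionising radiation oxidises bases and breaks DNA strands, and different enzymes answer each lesion. Glycosylases cut out damaged bases and the gap is refilled and sealed in base excision repair, nucleotide excision repair removes bulky lesions as a short strand, and breaks through both strands are rejoined by non-homologous end joining or copied from the sister strand by homologous recombination. Recombination and mismatch repair work largely behind the replication fork, whereas most microglia of the healthy brain are not dividing. Several repair genes are textbook targets of the transcription factor p53, which is activated by DNA damage, and genes used during replication are often controlled by E2F factors.

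The kept barcodes numbered between 1582 and 2652 per library and carried between 5675117 and 9736149 UMIs, the molecular tags that count each captured transcript once. Median depth lay between 3437 and 3594 UMIs per barcode. At least 5 of 9 microglia markers were detected in 99.4% to 99.9% of barcodes, and any pair of libraries shared 4 to 12 kept barcode sequences. Cdkn1a, the p53 target that encodes the cell cycle inhibitor p21, had 508 and 322 UMIs in the sham libraries and 21689 and 17026 in the irradiated ones, which matches the irradiation labels.

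Promoter sequences are shown for Mgmt and Polk, which were past 1.5-fold at both times, and for Lig1 and Brca2, which were higher in barcodes with cycling transcripts. Each is 250 bases before a transcription start of the gene, from RefSeq on GRCm38.p6, printed 5′ to 3′ on the strand of the gene. The Mgmt window printed (chr7:136894336-136894585, plus strand) lies outside annotated genes, and a further one lies in an intron of Mgmt. The Polk window printed (chr13:96519188-96519437, minus strand) belongs to a second start inside an intron of Polk. The Polk window at the annotated gene start (chr13:96542580-96542829) is not printed. The Lig1 window (chr7:13279015-13279264, plus strand) is 1 of 3 for that gene and is intronic, and the Brca2 window (chr5:150522371-150522620, plus strand) lies outside annotated genes. Capitals mark letters of a p53 site in Polk and of an E2F site in Brca2.
Mgmt: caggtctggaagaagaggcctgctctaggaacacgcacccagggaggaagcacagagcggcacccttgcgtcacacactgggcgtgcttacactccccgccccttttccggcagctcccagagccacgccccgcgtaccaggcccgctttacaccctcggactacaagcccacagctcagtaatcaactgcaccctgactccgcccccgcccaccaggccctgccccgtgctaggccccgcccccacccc
Polk: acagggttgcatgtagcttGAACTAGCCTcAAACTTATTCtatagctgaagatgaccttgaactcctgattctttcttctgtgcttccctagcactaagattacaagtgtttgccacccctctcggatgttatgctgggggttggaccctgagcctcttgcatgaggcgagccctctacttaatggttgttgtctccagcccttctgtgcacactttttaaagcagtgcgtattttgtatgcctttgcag
Lig1: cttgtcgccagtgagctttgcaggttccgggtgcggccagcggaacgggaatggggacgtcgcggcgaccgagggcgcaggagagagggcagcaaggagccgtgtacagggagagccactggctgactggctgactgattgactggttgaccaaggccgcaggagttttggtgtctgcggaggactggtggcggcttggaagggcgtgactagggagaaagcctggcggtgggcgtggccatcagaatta
Brca2: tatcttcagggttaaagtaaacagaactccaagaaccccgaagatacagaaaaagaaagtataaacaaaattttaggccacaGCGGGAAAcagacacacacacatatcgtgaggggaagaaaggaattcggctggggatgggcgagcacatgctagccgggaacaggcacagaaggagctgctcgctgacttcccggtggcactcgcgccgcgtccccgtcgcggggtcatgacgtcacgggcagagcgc

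Windows were found for 31 of the 37 genes, 37 windows in all, and were searched on both strands for 4 patterns. A CCAAT box, the letters CCAAT, stood in 14 of the 37 windows against 33.9% of all 32841 RefSeq windows. The E2F letters TTTCCCGC, TTTGGCGC or TTCCCGCC, of which the first and the last can overlap, stood in the windows of Brca2, Msh3 and Xrcc6 against 2.69% of all windows. In Brca2 they read GCGGGAAA on the printed strand and begin 168 bases before the start. A single p53 half-site stood in the window of Fanca and in the intronic window of Polk against 7.13% of all. A pair of p53 half-sites at most 13 bases apart with at most 2 mismatches in its 20 letters stood in the intronic Polk window alone among these genes, against 8.46% of all windows. Its half-sites begin 231 and 220 bases before that start and hold 1 mismatch. The Polk window at the annotated gene start held none of the 4 patterns, and neither did any window of Mgmt or Lig1. These are matches of letters and say nothing of binding.

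At 6 h after irradiation, 4 of the 32 measured genes were at least 1.5-fold higher than in sham, namely Mgmt, Polk, Rev1 and Msh6, against 8.97% of all 9934 genes measured. Lig1 and Nhej1 were at least 1.5-fold lower, against 9.31% of all genes. Scaled by the median of ratios in place of the total, 6 genes were higher and 1 lower at 6 h, with Ercc5 and Rad52 added above and Nhej1 lost below. At 1 week Mgmt, Brca2, Polk and Lig1 were at least 1.5-fold higher, 4 of 32 against 4.01% of all 9518 genes measured, and Rrm2b was lower, against 3.12%. The median log2 fold of the measured repair genes was -0.025 at 6 h and 0.11 at 1 week, next to -0.062 and 0.036 over all genes. Genes past 1.5-fold in either direction made up 18.75% of the measured repair genes at 6 h, where all genes had 18.3%, and 15.6% at 1 week, where all genes had 7.13%. As a list the repair genes stood near the background at 6 h, while Mgmt and Polk stood past 1.5-fold at both times.

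Folds compare UMI counts scaled to the total of the library (CPM), with an exact conditional binomial 95% interval that covers counting error only. The interval lay wholly past 1.5-fold for Mgmt, Polk and Lig1 at 6 h (9.38%, next to 7.12% of all genes) and for Mgmt at 1 week (3.13%, next to 1.66%). It excluded 0 for 11 of the 32 genes at 6 h (34.4%, next to 45.4% of all genes) and for 7 of 32 at 1 week (21.9%, next to 24.7%). Mutyh, Ung, Brca1, Fancd2 and Fanca had fewer than 50 UMIs in both comparisons. The measured genes nearest to that limit were Neil1 with 55 UMIs at 6 h and Brca2 with 61 at 1 week, and Mutyh, with 49 and 47 UMIs, was just under it.

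**Figure D1:**
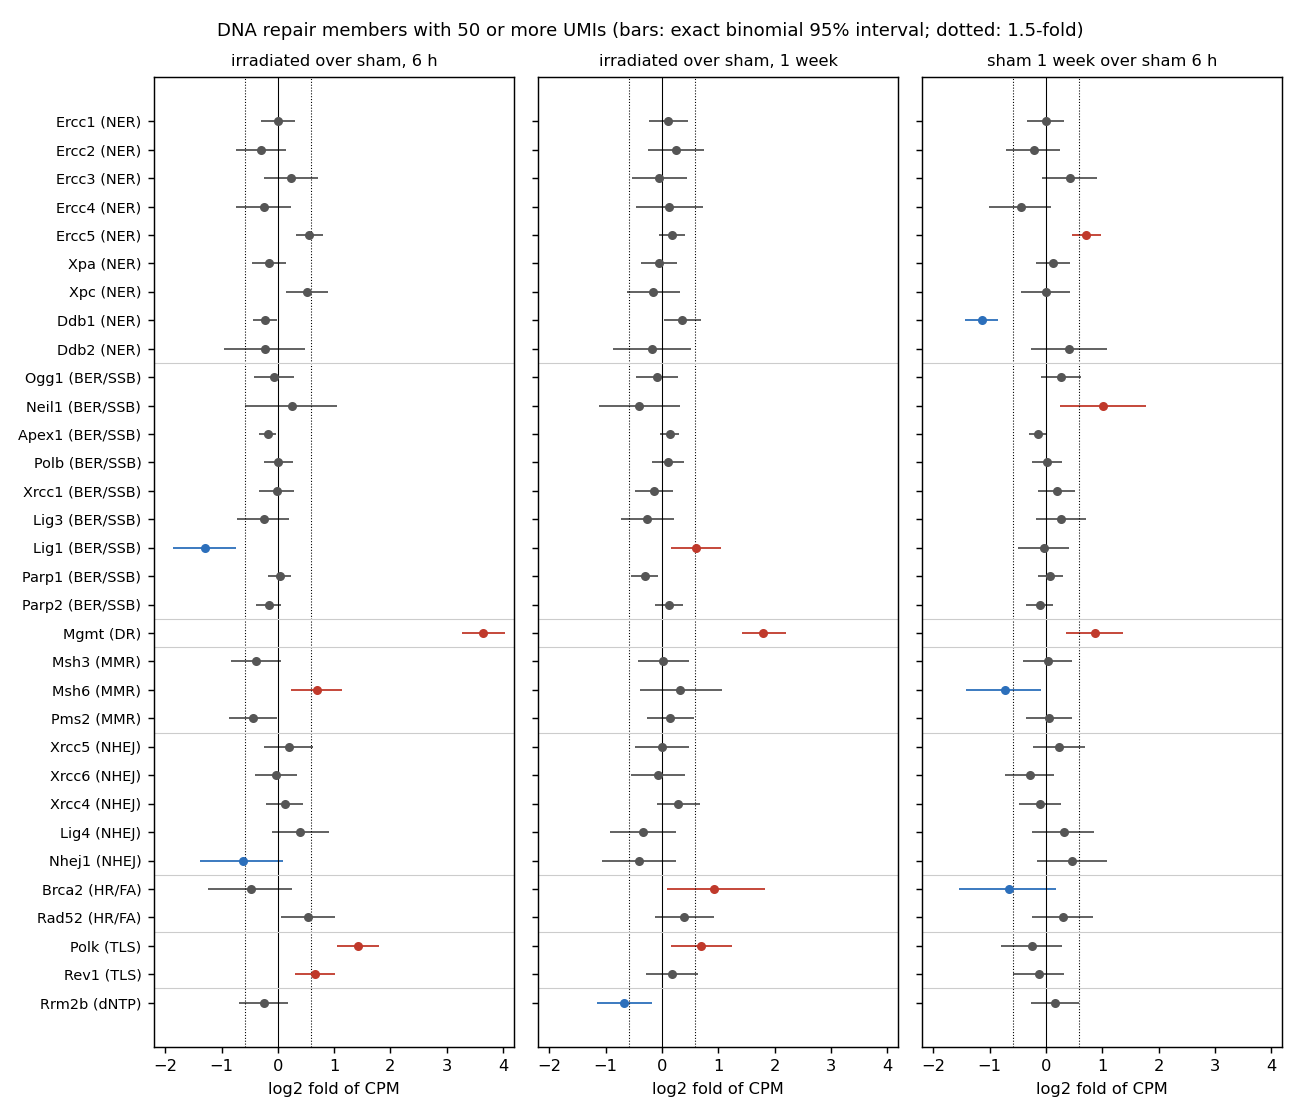
Log2 fold of CPM for each repair gene with 50 or more UMIs, for irradiated over sham at 6 h, irradiated over sham at 1 week and sham at 1 week over sham at 6 h, grouped by pathway. Points are folds, bars the exact binomial 95% interval, dotted lines 1.5-fold, red points higher and blue points lower past it. Mgmt stands apart at 6 h (3.65) and at 1 week (1.80), while most other genes lie between the dotted lines.

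Mgmt encodes the methyltransferase that removes alkyl groups from guanine in a single step and is used up in doing so (ENSMUSG00000054612, mm10 chr7:136894614-137130266). At 6 h it had 66 UMIs in the sham library and 625 in the irradiated one, and at 1 week 70 and 332. Both irradiated libraries were far above both sham libraries, and the intervals of the CPM values did not overlap between them. At 6 h the sham level of 6.78 CPM (5.24 to 8.62) stood against 84.8 CPM (78.3 to 91.8) after irradiation, a 12.5-fold difference and a log2 fold of 3.65 (3.28 to 4.03). At 1 week 12.3 CPM (9.62 to 15.6) stood against 43.0 CPM (38.5 to 47.9), a 3.49-fold difference and a log2 fold of 1.80 (1.43 to 2.20). By log2 fold it was number 38 of 9934 genes at 6 h and number 56 of 9518 at 1 week, counted from the highest. The sham libraries themselves differed, with a log2 fold of 0.86 (0.36 to 1.37) from 6 h to 1 week. Against the sham library of the other time the log2 fold was 2.78 at 6 h and 2.67 at 1 week.

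Polk and Rev1, the 2 genes of translesion synthesis among the 37, whose products copy past a lesion, were both past 1.5-fold at 6 h. Of 6 further translesion genes measured at 6 h, 1 was higher and 0 lower, and 4 had log2 folds below 0, with a median of -0.025. Polk, the polymerase kappa gene (ENSMUSG00000021668, chr13:96480690-96542579), had 90 UMIs without and 182 with irradiation at 6 h, and 44 and 97 at 1 week. Its level was 9.24 and 24.7 CPM at 6 h and 7.75 and 12.6 CPM at 1 week, in sham and irradiated cells, so that both irradiated libraries were above both sham libraries, although the intervals of the 1 week irradiated and the 6 h sham library overlapped. The log2 fold was 1.42 (1.05 to 1.80) at 6 h and 0.70 (0.169 to 1.246) at 1 week. Against the sham library of the other time the 1 week value was 0.44, which is within 1.5-fold. Rev1, whose product also serves as a platform for the other translesion polymerases (ENSMUSG00000026082, chr1:38052786-38129801), had 124, 148, 66 and 101 UMIs in the library order 6 h sham, 6 h irradiated, 1 week sham and 1 week irradiated. Its log2 fold was 0.66 (0.30 to 1.01) at 6 h and 0.17 (-0.29 to 0.64) at 1 week. The 3′ exons of Rev1 overlap those of Eif5b on the opposite strand over 1643 bases, and whether the counting used strand is not given in the sources used here.

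**Figure D2:**
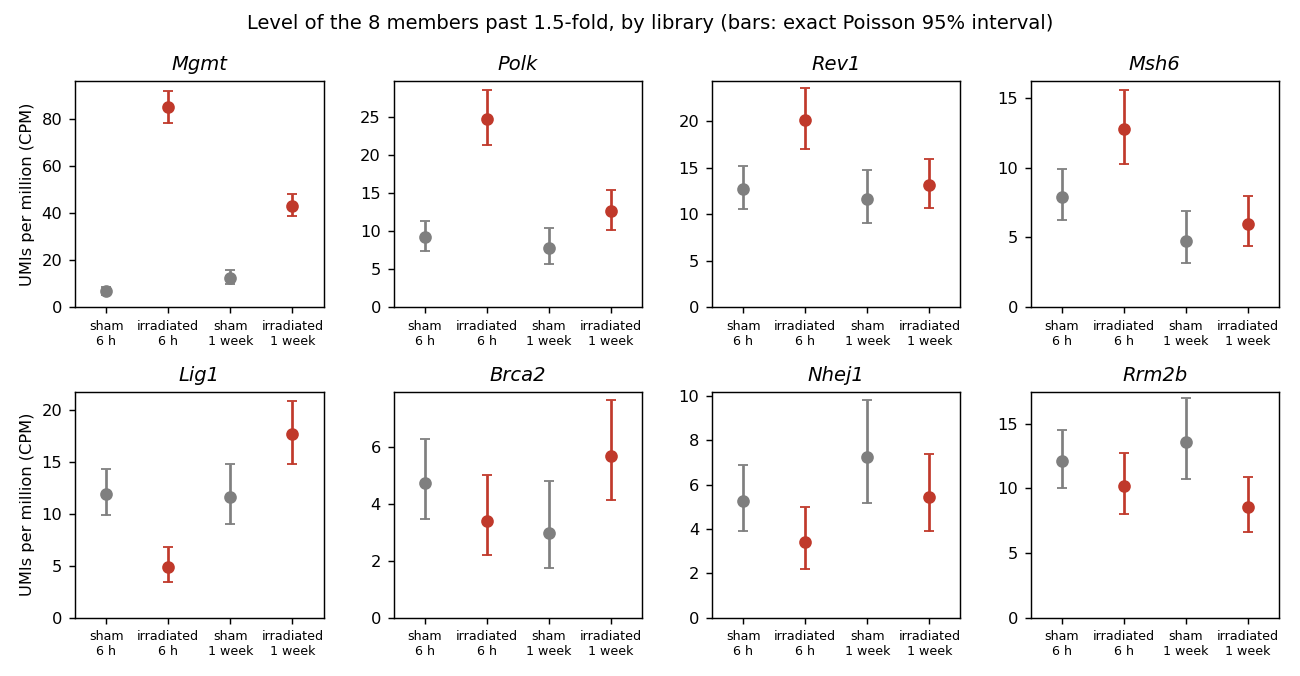
Level in CPM of the 8 repair genes past 1.5-fold after irradiation, in each of the 4 libraries, sham in grey and irradiated in red. Points are library values and bars the exact Poisson 95% interval, with each axis starting at 0. Mgmt goes from 6.78 CPM in sham to 84.8 CPM in irradiated cells at 6 h, whereas Lig1 is at 4.89 CPM in irradiated cells at 6 h and 17.6 CPM at 1 week.

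None of the 9 nucleotide excision genes was past 1.5-fold at either time, and their median log2 fold was -0.16 at 6 h and 0.11 at 1 week. Ercc5, the endonuclease that cuts on the 3′ side of the lesion, came closest at 6 h. It had 266 and 297 UMIs at 6 h and 255 and 394 at 1 week, in sham and irradiated cells, with log2 folds of 0.56 (0.32 to 0.81) and 0.18 (-0.05 to 0.42). Its sham libraries differed by more than either irradiated library differed from its own sham, at a log2 fold of 0.72 (0.46 to 0.97) from 6 h to 1 week. Against the other sham the 6 h value was -0.16 and the 1 week value 0.90. Xpc, the sensor of helix distortion, had 122 and 132 UMIs at 6 h and 71 and 87 at 1 week, with log2 folds of 0.52 (0.15 to 0.88) and -0.15 (-0.62 to 0.32).

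Ddb1 and Ddb2 form the complex that recognises ultraviolet damage, and Ddb2 and Xpc are known p53 targets in human cells. Ddb1 had 466 and 302 UMIs at 6 h and 123 and 215 at 1 week, in sham and irradiated cells. Its log2 fold was -0.22 (-0.44 to -0.01) at 6 h and 0.36 (0.04 to 0.69) at 1 week, while the sham libraries differed by -1.14 (-1.44 to -0.85). The sham libraries thus lay further apart in Ddb1 than either irradiated library from its own sham, and time and library cannot be told apart. Against the other sham the log2 folds of Ddb1 were 0.92 at 6 h and -0.78 at 1 week. Ddb2 had 45 and 29 UMIs at 6 h and 35 and 42 at 1 week, with log2 folds of -0.23 (-0.96 to 0.47) and -0.18 (-0.86 to 0.51). Its 3′ end shares 652 exon bases with Acp2 on the opposite strand. The remaining nucleotide excision genes are the helicases of TFIIH (Ercc2 and Ercc3), the damage verifier Xpa, and the partners Ercc1 and Ercc4, which cut on the 5′ side. Their log2 folds ran from -0.30 (Ercc2) to 0.23 (Ercc3) at 6 h and from -0.05 (Ercc3) to 0.24 (Ercc2) at 1 week, with intervals that all included 0.

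Of the 11 genes of base excision and single-strand break repair, 9 were measured, and Lig1 was the only one past 1.5-fold. Lig1 encodes the ligase that joins Okazaki fragments in replication and seals long repair patches (ENSMUSG00000056394, chr7:13277283-13311433). It had 116 UMIs without and 36 with irradiation at 6 h, and 66 and 136 at 1 week. The levels were 11.9, 4.89, 11.6 and 17.6 CPM in that order, so the sham libraries were alike, the irradiated library at 6 h was the lowest and that at 1 week the highest. The log2 fold was -1.29 (-1.87 to -0.74) at 6 h, number 88 of 9934 from the lowest, and 0.60 (0.17 to 1.05) at 1 week. Scaled by the median of ratios the 1 week value was 0.56, just within 1.5-fold. The mean over cells of the per-cell CPM gave 0.27.

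The other 8 measured genes of this pathway lay within 1.5-fold at both times. Apex1, the endonuclease that cuts at sites without a base, had 908 and 606 UMIs at 6 h and 480 and 718 at 1 week, in sham and irradiated cells. Its log2 folds were -0.18 (-0.33 to -0.03) and 0.14 (-0.03 to 0.31), the narrowest intervals among the 37 genes. Its 3′ end overlaps exons of Pip4p1 on the opposite strand over 877 bases. Parp1, which senses strand breaks and builds poly(ADP-ribose), had 448 and 347 UMIs at 6 h and 275 and 302 at 1 week. Its log2 folds were 0.03 (-0.17 to 0.24) and -0.31 (-0.55 to -0.07), so the 1 week interval excluded 0 on the lower side. Parp2, its closest relative, was at -0.16 (-0.39 to 0.06) and 0.12 (-0.13 to 0.37).

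The gap-filling polymerase Polb was at 0.01 (-0.24 to 0.26) at 6 h and 0.11 (-0.17 to 0.39) at 1 week. The scaffold Xrcc1 and its ligase Lig3 were at -0.02 and -0.25 at 6 h and at -0.14 and -0.26 at 1 week, with all 4 intervals including 0. The glycosylase Ogg1, which removes oxidised guanine, was at -0.07 (-0.43 to 0.28) and -0.09 (-0.46 to 0.28). The 3′ exons of Lig3 and Ogg1 overlap more abundant genes on the opposite strand, Rffl over 1826 bases and Camk1 over 232 bases, so the doubt about strand holds for them too. In the 6 h sham library Rffl had 367 UMIs against 104 for Lig3, and Camk1 5963 against 160 for Ogg1. Neil1, another glycosylase for oxidised bases, had only 29, 26, 34 and 35 UMIs across the libraries in the order given for Rev1, with log2 folds of 0.24 (-0.58 to 1.06) and -0.40 (-1.13 to 0.32). The glycosylases Mutyh and Ung were under the limit. Mutyh, which removes adenine paired with oxidised guanine, had 40 and 9 UMIs at 6 h and 14 and 33 at 1 week. Ung, which removes uracil, had 28 and 10 at 6 h and 13 and 26 at 1 week. Both were lowest in the irradiated library at 6 h.

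Among the mismatch repair genes, Msh6, which recognises single mismatches, was past 1.5-fold at 6 h (ENSMUSG00000005370, chr17:87975062-87990892). It had 77, 94, 27 and 46 UMIs in the same order, or 7.91, 12.8, 4.76 and 5.96 CPM. The log2 fold was 0.69 (0.24 to 1.14) at 6 h and 0.33 (-0.39 to 1.07) at 1 week, and -0.73 (-1.42 to -0.08) from the sham library at 6 h to that at 1 week. The irradiated library at 6 h was therefore the highest, and the sham libraries differed by about as much as irradiation at 6 h. Msh3, which recognises insertion loops, was at -0.38 (-0.83 to 0.06) and 0.02 (-0.43 to 0.48). Pms2, a subunit of the endonuclease that follows, had 136 and 76 UMIs at 6 h and 82 and 123 at 1 week, with log2 folds of -0.44 (-0.86 to -0.02) and 0.14 (-0.27 to 0.56).

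In non-homologous end joining, Xrcc5 and Xrcc6 encode the Ku heterodimer that caps broken ends. Their log2 folds were 0.20 (-0.24 to 0.63) and -0.03 (-0.41 to 0.34) at 6 h, and -0.0016 and -0.07 at 1 week. Lig4, the ligase of this pathway, and its partner Xrcc4 were at 0.40 (-0.10 to 0.91) and 0.12 (-0.21 to 0.45) at 6 h and at -0.33 and 0.29 at 1 week, again with intervals that included 0. Nhej1, whose product aligns the ends with Xrcc4 (ENSMUSG00000026162, chr1:74967139-75125200), had 51 and 25 UMIs at 6 h and 41 and 42 at 1 week. Its log2 fold of -0.63 (-1.38 to 0.09) at 6 h was just past 1.5-fold on few molecules, and it was -0.41 (-1.07 to 0.25) at 1 week. Scaled by the median of ratios it was -0.56 at 6 h, within 1.5-fold.

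Recombination and Fanconi anaemia genes were sparse, and only 2 of 5 were measured. Brca2, which loads the recombinase onto single strands (ENSMUSG00000041147, chr5:150522630-150570329), had 46, 25, 17 and 44 UMIs in the order given for Rev1. Its levels were 4.72, 3.39, 2.996 and 5.70 CPM, so the highest were the sham library at 6 h and the irradiated library at 1 week. The log2 fold was -0.48 (-1.24 to 0.26) at 6 h and 0.93 (0.09 to 1.83) at 1 week, and 0.27 at 1 week against the other sham. Rad52, an annealing factor, had 71, 78, 51 and 91 UMIs, with log2 folds of 0.54 (0.06 to 1.02) and 0.39 (-0.12 to 0.92). Brca1, the tumour suppressor that promotes end resection, had 12, 2, 1 and 5 UMIs, Fancd2 had 8, 2, 1 and 7, and Fanca had 1, 1, 2 and 7. No fold is read from these 3 genes.

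Rrm2b, the small subunit of ribonucleotide reductase that supplies nucleotides outside S phase and a known p53 target in human cells, was not higher after irradiation (ENSMUSG00000022292, chr15:37923952-37961318). It had 118, 75, 77 and 66 UMIs, or 12.1, 10.2, 13.6 and 8.55 CPM. Both irradiated libraries were below both sham libraries. The log2 fold was -0.25 (-0.69 to 0.18) at 6 h and -0.67 (-1.16 to -0.17) at 1 week, and the latter was -0.50 against the other sham, within 1.5-fold. For comparison, the p53 targets Mdm2 and Ccng1 had log2 folds of 2.27 and 3.68 at 6 h and of 1.20 and 2.49 at 1 week.

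Mgmt and Polk were also followed by cell. After each barcode had been thinned to 1500 UMIs, Mgmt was detected in 0.994% of sham and 11.7% of irradiated cells at 6 h and in 1.39% and 6.35% at 1 week. Unthinned shares were 2.45% (65 of 2652 cells), 25.2% (500 of 1986), 4.24% (67 of 1582) and 14.0% (300 of 2149). The highest count in any cell was 2 UMIs in the sham and 4 in the irradiated libraries, so the difference was spread over many cells. Polk was detected after thinning in 1.60% and 3.66% of cells at 6 h and in 1.13% and 1.91% at 1 week. Thinning left out 35 to 76 shallower barcodes per library. No cell type that should lack these genes was present in number, so the share that free RNA gives was not measured.

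**Figure D3:**
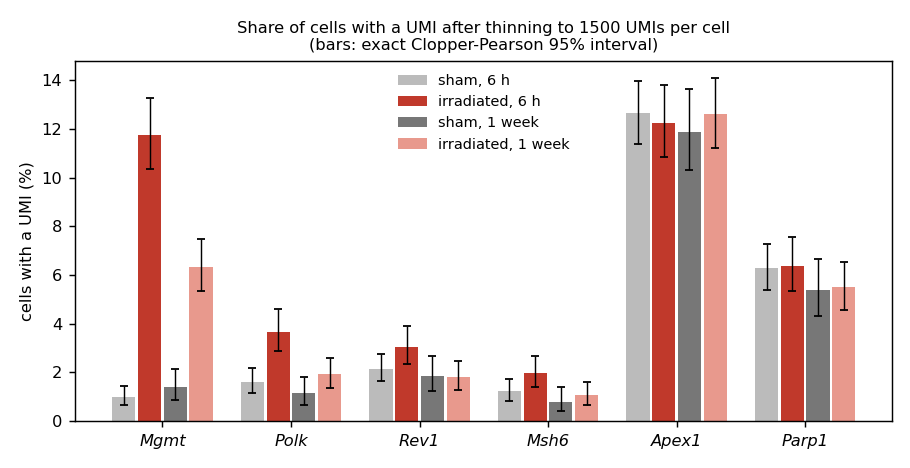
Share of cells with at least 1 UMI of 6 repair genes after thinning each cell to 1500 UMIs, in the 4 libraries. Bars are shares in percent, starting at 0, with the exact Clopper-Pearson 95% interval. Mgmt goes from 0.994% of sham to 11.7% of irradiated cells at 6 h, while Apex1 stays between 11.9% and 12.6% in all 4 libraries.

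The level of Mgmt was compared between irradiated cells with and without Cdkn1a. At 6 h nearly all irradiated cells held a Cdkn1a UMI, and Mgmt was at 83.3 CPM (41.6 to 149) in the 48 cells without one and 84.9 CPM (78.3 to 91.9) in the 1938 cells with one. The cells without were shallower, with a median of 2649 against 3532.5 UMIs. At 1 week Mgmt was at 23.3 CPM (13.3 to 37.8) in the 190 cells without a Cdkn1a UMI and 45.0 CPM (40.1 to 50.2) in the 1959 with one, at median depths of 3523.5 and 3427 UMIs. The intervals were apart at 1 week and overlapped at 6 h. Polk had 0 UMIs in the 48 cells without Cdkn1a at 6 h, where the exact upper limit is 27.9 CPM, and 25.2 CPM in the others.

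The content of cycling transcripts differed in the same direction as Lig1 and Brca2 within each time, although the sham libraries, which were alike in Lig1, differed in it. A list of 20 cycling genes summed to 161 and 67.6 CPM at 6 h and to 75.8 and 290 CPM at 1 week, without and with irradiation, and all 20 genes were detected except Rrm2 in sham at 1 week. Barcodes with 3 or more UMIs of this list made up 1.51% (40 barcodes), 0.554% (11), 0.695% (11) and 3.12% (67). In them Lig1 was at 125, 66.7, 112 and 171 CPM, against 8.63, 4.67, 9.63 and 7.93 CPM in barcodes with no cycling UMI. The level in the cycling barcodes was thus higher in every library, although the 2 libraries with 11 such barcodes rest on 4 and 7 UMIs of Lig1. The limit of 3 is a range on a count, with 13, 5, 6 and 16 barcodes at exactly 3 and 63, 39, 35 and 50 at exactly 2. Cycling barcodes were also deeper, with medians of 5352.5 to 5865 UMIs.

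**Figure D4:**
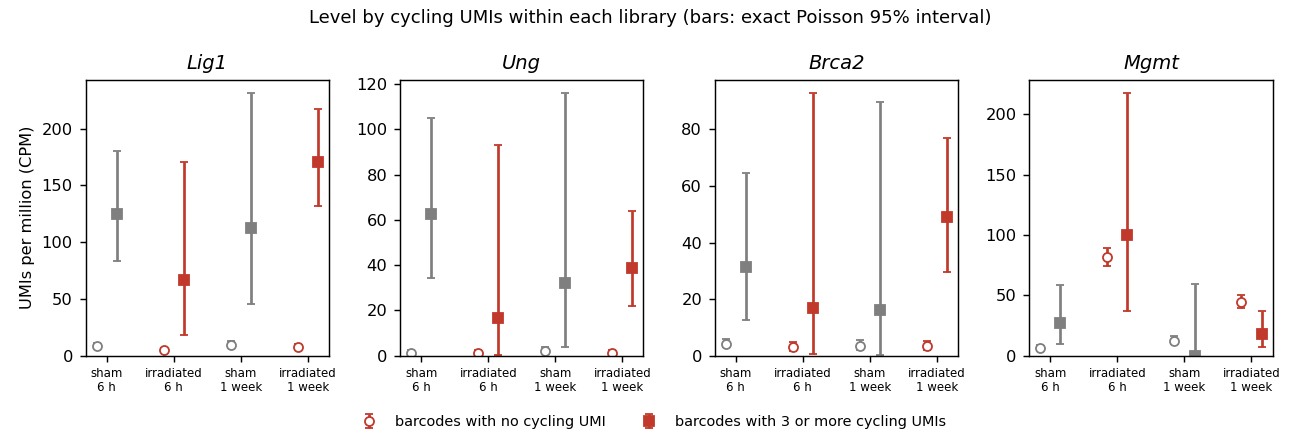
Level in CPM of Lig1, Ung, Brca2 and Mgmt in barcodes with no UMI of the cycling list (open circles) and with 3 or more (filled squares), in each library, sham in grey and irradiated in red. Bars are the exact Poisson 95% interval, and axes start at 0 and differ between genes. Lig1 reaches 171 CPM in cycling barcodes of the irradiated library at 1 week against 7.93 CPM in those with no cycling UMI, while Mgmt is at 18.1 and 44.4 CPM there.

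Barcodes that held a cycling UMI numbered 553, 339, 273 and 431 in the order given for Rev1, of which 450, 289, 227 and 314 held exactly 1. Without them, the log2 fold of Lig1 was -0.89 at 6 h, still past 1.5-fold. At 1 week it was -0.28, on the lower side but within 1.5-fold. No interval was computed for these folds, so a change of direction at 1 week is not shown. The log2 fold of Brca2 at 1 week was 0.04 and that of Polk 0.49. Then 30 genes were measured at 1 week, and of the 4 genes that were higher only Mgmt was past 1.5-fold, at 1.86, and its 6 h value was 3.68. Brca2 was at 49.2 CPM (29.6 to 76.8) in the cycling barcodes of the irradiated library at 1 week and 3.38 CPM (2.06 to 5.21) in barcodes with no cycling UMI. Ung was at 38.8 and 1.18 CPM in the same sets of barcodes, but it was under the limit of 50 UMIs and had only 26 in that library. Mgmt went the other way at 1 week, at 18.1 CPM (7.29 to 37.3) in cycling barcodes and 44.4 CPM (39.2 to 50.1) in those with no cycling UMI.

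A further list of 94 repair genes, none of them among the 37, was read the same way. At 6 h 71 were measured, and 4 were higher and 15 lower, with a median log2 fold of -0.10. The 4 higher ones were Gtf2h1, a TFIIH subunit, at 0.99, the replication clamp Pcna at 0.64, the nuclease Fan1 at 0.64 and the strand-break factor Aplf at 0.60. The lower ones included 4 of 5 measured genes that the list puts under nucleotide supply. These were Rrm1 at -1.01, Rrm2 at -1.01, Dut at -0.83 and Samhd1 at -0.60. That heading is loose, since the product of Samhd1 breaks nucleotides down. In excision repair Gtf2h2, a TFIIH subunit, was at -0.64, the replication protein A subunits Rpa2 and Rpa3 at -0.60 and -0.65, and the glycosylase Mbd4 at -0.76. The end-joining genes Prkdc and Polm were at -0.76 and -0.68, and the recombination and Fanconi anaemia genes Palb2, Fancc, Fancg and Ube2t at -0.98, -0.72, -0.65 and -0.60. Of all genes measured at 6 h, 8.97% were higher and 9.31% lower. Gtf2h2, Rpa2, Ube2t and Samhd1 lay at the threshold, and the shift of 0.062 that median-of-ratios scaling gives puts them within 1.5-fold. The cycling list, which holds Rrm2, was also lower in this comparison, at 67.6 against 161 CPM, and its part in these values was not tested.

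At 1 week 70 of the 94 genes were measured, of which 6 were higher, against 4.01% of all genes, and 0 lower, against 3.12%, with a median log2 fold of 0.11. Past 1.5-fold in either direction were 8.57% of this list and 7.13% of all genes, which is near the background. The higher ones were Tk1 at 3.18 (2.07 to 4.53), Neil3 at 3.59 (1.96 to 5.91), Dut at 1.24 (0.56 to 1.96), Aplf at 0.77 (0.02 to 1.56), Parp3 at 0.73 (0.10 to 1.39) and Rrm2. At 1 week Rrm2 had 0 UMIs in the sham and 92 in the irradiated library. With the sham library put at 3 counts the log2 fold was 4.50, and the lower limit of its interval was 4.17. Rrm2, Tk1 and Dut supply or clean nucleotides for replication, and Rrm2 is also in the cycling list.

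Between the sham libraries 3 of 33 measured genes of the 37 were at least 1.5-fold higher at 1 week, namely Neil1, Mgmt and Ercc5, against 2.89% of all 9728 genes. Ddb1, Mutyh, Msh6 and Brca2 were lower, 4 of 33 against 4.89%. Past 1.5-fold in either direction were 21.2% of these genes and 7.78% of all genes, although the interval lay wholly past 1.5-fold for Ddb1 alone. Time and library differ together here and cannot be told apart. Against the sham library of the other time, Mgmt, Polk, Rev1 and Msh6 were again higher at 6 h, with Ddb1 added. Lig1 (-1.25) and Nhej1 (-1.09) were again lower at 6 h, with Neil1 (-0.76) and Ddb2 (-0.65) added. Against its own sham Neil1 had been at 0.24. Of the 4 genes higher at 1 week against their own sham, only Mgmt was again past 1.5-fold. At 1 week Ercc5 (0.90), Rad52 (0.69) and Neil1 (0.61) were then higher and Ddb1 (-0.78) lower, and Rrm2b was within 1.5-fold.

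Some marker lists of other cells differed in the irradiated library at 6 h, and others did not. The 6 oligodendrocyte precursor markers summed to 8.82 CPM there, all 6 with UMIs, and to between 0 and 0.518 CPM in the other libraries. The 8 astrocyte markers summed to 259 CPM there and to between 143 and 181 CPM elsewhere, with Aldh1l1 at 0 in the other 3 libraries. The 9 microglia markers were lowest there, at 57745 CPM against 63209 to 67414 CPM elsewhere. The 8 monocyte markers summed to 44.1 and 62.6 CPM at 6 h and to 15.5 and 17.4 CPM at 1 week, with Ly6c2 at 0 in all 4 libraries, and the neutrophil markers were at 0 in all 4. The 5 B cell markers found were lowest in the irradiated library at 6 h, at 39.2 CPM against 67.4 to 89.4 CPM elsewhere, with Pax5 at 0 in all 4. Border macrophage and oligodendrocyte markers changed little at 6 h, from 48.1 to 47.7 and from 47.9 to 52.3 CPM. Endothelial markers were at 30.1 and 21.45 CPM at 6 h, and neuron markers were highest in the irradiated library at 1 week, at 6.35 CPM. A UMI of the astrocyte list was found in 36.5% to 54.5% of barcodes, so its sum gives no share of astrocytes. Among barcodes with at least 5 of 9 microglia markers the same 4 genes were higher and the same 2 lower at 6 h. Mgmt was at 3.65, Polk at 1.42 and Lig1 at -1.28. This filter kept 2647 of 2652 sham and 1975 of 1986 irradiated barcodes at 6 h, so it could hardly change these values. It does not remove free RNA, and the part of other cells in the folds was not tested.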

How the data were processed

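The authors deposited raw UMI counts per gene and barcode, which per the submitters' processing notes come from Cell Ranger 2.0 and mm10. How barcodes were called, which annotation was used and whether strand was used in counting were not found in the labels. The files held 8486 barcodes, while the design text states 8095 cells. Barcodes with at least 1000 UMIs, at least 500 genes and at most 10% mitochondrial UMIs were kept (8369). No doublet caller was run, and barcodes up to 10000 UMIs served as an alternative. Sums of UMIs per library were expressed per total of that library (CPM). Folds carry the exact conditional binomial 95% interval, CPM the exact Poisson and shares the exact Clopper-Pearson interval; none of them covers more than counting error. For a fold, 0 UMIs were replaced by 3. A gene was measured from 50 UMIs over both libraries and called from 1.5-fold. With 1 library per group no test was made. Coordinates came from GENCODE vM21 (GRCm38), which held 27722 of the 27998 gene identifiers. Of the marker and repair symbols listed, 2 were not matched (Ighm and Trbc2).

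All 37 genes were accounted for, those past 1.5-fold after irradiation with the values of all libraries, and of the 94 other repair genes those past 1.5-fold were named, except 1 that is not reported here. The 37 genes and all lists were chosen with earlier results of these data known. Alternatives were other barcode filters, a microglia marker filter, removal of barcodes with any cycling UMI and scaling by the median of ratios. Further ones were the mean over cells, the other sham library, and other minimums and fold thresholds. Calculations ran in Python 3.11.15 (numpy 2.4.6, scipy 1.17.1, pandas 2.3.3, seed 1) and were tested on simulated data.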

Additional observations from a re-analysis of the deposited data

Results flagged for a closer look

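Lig1 was past 1.5-fold in opposite directions at the 2 times, with a log2 fold of -1.29 at 6 h (116 UMIs in sham and 36 in irradiated cells) and 0.60 at 1 week (66 and 136 UMIs). Each group is 1 pooled library, and the difference between the times was not tested. The level of Lig1 in barcodes with no cycling UMI was 8.63 and 4.67 CPM at 6 h and 9.63 and 7.93 CPM at 1 week, in sham and irradiated cells.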

How the results depend on the processing

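No paired analysis was possible because each group is 1 library and the labels number no replicates. In this section, without cycling barcodes means without every barcode that held 1 or more UMIs of the cycling list. Most of the barcodes so removed held exactly 1 such UMI, so the removed set is wider than the barcodes with 3 or more. At 6 h the count of repair genes higher was 2 at a fold threshold of 2 and 8 at the looser threshold, and the count lower was 1 at a threshold of 2 and 5 at the looser one. The count lower at 6 h was also 1 with all deposited barcodes, from 2000 UMIs, without cycling barcodes and with median-of-ratios scaling, 4 against the other sham, 4 with a minimum of 20 UMIs, 6 with no minimum and 0 with a minimum of 200. At 1 week the count higher was 1 without cycling barcodes, 2 with a minimum of 200 UMIs, 8 with no minimum, 1 at a threshold of 2 and 7 at the looser one. The count lower at 1 week was 2 without cycling barcodes, 0 with a minimum of 200 UMIs, 0 at a threshold of 2 and 4 at the looser one. Between the sham libraries the count higher was 1 with a minimum of 200 UMIs, 1 at a threshold of 2 and 6 at the looser one, and the count lower was 2 without cycling barcodes, 1 with a minimum of 200 UMIs and 1 at a threshold of 2. The log2 fold of Lig1 at 1 week was -0.28 without cycling barcodes, on the lower side but within 1.5-fold, and carries no interval. For thresholds and minimums the alternative sets the count by construction, and for the others the cause was not tested. Over the barcode, scaling and sham alternatives the log2 fold of Mgmt ran from 2.78 to 3.71 at 6 h and from 1.77 to 2.67 at 1 week, and that of Polk from 1.42 to 1.67 and from 0.44 to 0.79. Median-of-ratios scaling shifted all folds by 0.062 at 6 h and -0.036 at 1 week. Depth limits the genes under 50 UMIs, for which no fold is read.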
